A study of Mus musculus with 14 samples.

Results

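The genes described here are 40 factors of ribosome biogenesis, chosen by name from a list of proteins that build ribosomal subunits in the nucleolus. The choice of genes used no measured value, but the list was drawn up with earlier results of these data known. Each was matched to the entry of that name in a table of 39721 gene entries. Where a gene had several, the one of highest mean FPKM was used. All 40 had an entry and all 40 passed the filter on low values, among 11977 entries tested. They comprise 3 subunits of RNA polymerase I, 4 box C/D and 3 box H/ACA snoRNP proteins, 4 nucleolar chaperones and helicases, 15 factors of small subunit assembly and 11 of large subunit assembly.

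Transcripts were measured by sequencing polyadenylated RNA from macrophages grown out of bone marrow of male C57Bl6/J mice, 6 to 12 weeks old, in medium with L929-conditioned medium as the source of CSF-1. Cells first received Poly I:C, a synthetic double-stranded RNA sensed by TLR3, at 100 ng/mL, or PBS, for 24 h. They were then washed and given LPS, a component of bacterial outer membranes that TLR4 senses, or PBS, for 2 h or 6 h. The 8 groups are therefore Poly I:C then LPS, Poly I:C then PBS, PBS then LPS and PBS then PBS, each at 2 h and 6 h. The LPS dose of the second stimulus was not stated. Each group had 2 libraries, except PBS then PBS with 1 library at each time.

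Ribosome assembly starts in the nucleolus, where RNA polymerase I transcribes a long precursor rRNA. Small nucleolar RNAs carried by box C/D and box H/ACA proteins guide its modification, and a large complex around the U3 snoRNP folds and cleaves the part that becomes the small subunit. Other factors mature the large subunit, and both subunits are then exported. The transcription factor MYC is known to activate many of these genes, and it binds DNA as a pair with MAX at E-boxes. MXD1 also pairs with MAX and represses at the same sites.

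Levels are the deposited FPKM values, fragments scaled to transcript length and to the size of the library. A change is given as the difference between group means of log2(FPKM + 1), ± its standard error. These understate the change of weakly expressed genes. Calls rest on a 2-sided limma test, with a Benjamini-Hochberg adjusted p below 0.05 over all 11977 entries. The files hold no counts, which leaves the depth in reads unknown, and the value of 1 fragment differed between libraries by up to 3.07-fold. Separate animals or cultures are not stated for the replicates, and p-values therefore measure no more than the spread between these samples, perhaps technical. Replicates correlated across entries at r = 0.974 to 0.988, lowest for PBS then LPS at 2 h. Between replicates the factors shifted partly together, given here as replicate 1 against 2. After PBS then LPS, 31 were higher and 9 lower at 2 h, and 32 and 8 at 6 h. After Poly I:C then LPS, 10 were higher and 30 lower at 2 h, and 8 and 32 at 6 h. After Poly I:C then PBS the split was near even, 19 and 21 at 2 h and 22 and 18 at 6 h. Medians of these shifts lay between -0.11 and 0.15 log2. Counts of called factors thus do not stand for as many independent genes. Macrophage markers summed to 5361 to 20640 FPKM in every library, and 4 of 5 T cell markers were at 0 throughout.

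In cells that had received PBS first, the 40 factors leaned upward 2 h after LPS, against the 1 control library of that time. Rrs1, which brings the 5S particle into the forming large subunit, was at 44.3 and 38.9 FPKM after PBS then LPS, against 12.6 FPKM after PBS then PBS. Nop58, a core protein of box C/D snoRNPs, was at 44.9 and 43.3 FPKM after PBS then LPS, against 22.3 FPKM after PBS then PBS. Both LPS libraries lay above the lone control library for each of these genes. Called higher were 8 of the 40, namely Rcl1, Rrs1, Nhp2, Nop58, Wdr43, Rrp9, Ltv1 and Npm1. Only Rrp1b was called lower. Over all tested entries, 15.9% were called, 9.47% higher and 6.39% lower. The median change of the factors was 0.39, against 0.04 over all entries. The largest increases were those of Rcl1 at 1.80 ± 0.33 (limma adjusted p = 0.00402), Rrs1 at 1.65 ± 0.23 (limma adjusted p = 7.19e-04) and Nhp2 at 1.05 ± 0.25 (limma adjusted p = 0.0168). The early count rested on single libraries, since 5 factors were called without PBS then LPS replicate 1 and 14 without replicate 2, and 5 with the 2 h libraries alone. The control here and at 6 h is 1 library, assumed to vary like the other groups. For each library, the median over the factors of log2(FPKM + 1) minus the factor's mean over libraries was taken. It was 0.73 and 0.67 for PBS then LPS at 2 h and 0.36 for the 2 h control. The 6 h control, without LPS, stood at 0.72, so the early lean depends on the control library used. In bulk RNA, fewer cells of a type and less RNA per cell cannot be told apart.

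At 6 h after LPS, in other samples of cells that had received PBS first, the FPKM of most factors was far lower than in the control. Gnl3, the nucleolar GTPase nucleostemin, was at 2.72 and 1.73 FPKM after PBS then LPS, against 26.7 FPKM after PBS then PBS. Tsr1, a late factor of small subunit assembly, was at 2.40 and 1.78 FPKM after PBS then LPS, against 17.9 FPKM after PBS then PBS. Nolc1, a chaperone of snoRNPs, was at 2.96 and 2.60 FPKM after PBS then LPS, against 19.9 FPKM after PBS then PBS. Both LPS libraries lay far below the lone control library for each of these genes. Called lower were 34 of the 40 factors, whereas 43.4% of all tested entries were called, 20.6% lower and 22.9% higher. The median change was -1.25 for the factors and 0.02 for all entries. The largest decreases were -3.12 ± 0.19 for Gnl3 (limma adjusted p = 6.40e-07), -2.62 ± 0.23 for Tsr1, -2.47 ± 0.15 for Nolc1, -2.46 ± 0.33 for Dkc1 and -2.41 ± 0.30 for Gar1. Not called were Wdr43 at 0.32 ± 0.13, Rcl1 at -0.06 ± 0.33, Ebna1bp2 at -0.06 ± 0.20, Pes1 at -0.34 ± 0.17, Nhp2 at -0.35 ± 0.25 and Polr1c at -0.41 ± 0.24. The limma test called 0 factors higher, and 1 was higher at an unadjusted p under 0.05.

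The late fall was also measured without the lone controls, in the direct comparison of PBS then LPS at 6 h and at 2 h. Called lower at 6 h were 34 of 40, against 26% of all entries (49.4% called in either direction, 23.4% higher), with a median of -1.21 for the factors and -0.05 for all entries. Gnl3 changed by -3.34 ± 0.15, Rrs1 by -3.20 ± 0.18, Tsr1 by -2.73 ± 0.19, Nop58 by -2.70 ± 0.16 and Nolc1 by -2.26 ± 0.12. Called in opposite directions against the control at the 2 times, early up and late down, were Ltv1, Nop58, Npm1, Rrp9 and Rrs1. That pair of calls was made for these 5 of 40 factors and for 0.501% of all entries. The 2 h calls of Ltv1, Npm1 and Rrp9 were lost with no filter and with the 2 h libraries alone. The control libraries moved too. From 2 h to 6 h of PBS then PBS, 36 of 40 factors had a positive difference, with a median of 0.31 against -0.01 over all entries, and Dkc1 differed most at 1.48. With 1 library at each time this difference has no test, and its part in the results was not tested beyond pooling the controls. With both control libraries pooled, the 6 h change with LPS after PBS was -0.27 for Bop1 and -0.32 for Pno1, neither called. That of Polr1a was -0.76 and still called.

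**Figure D1:**
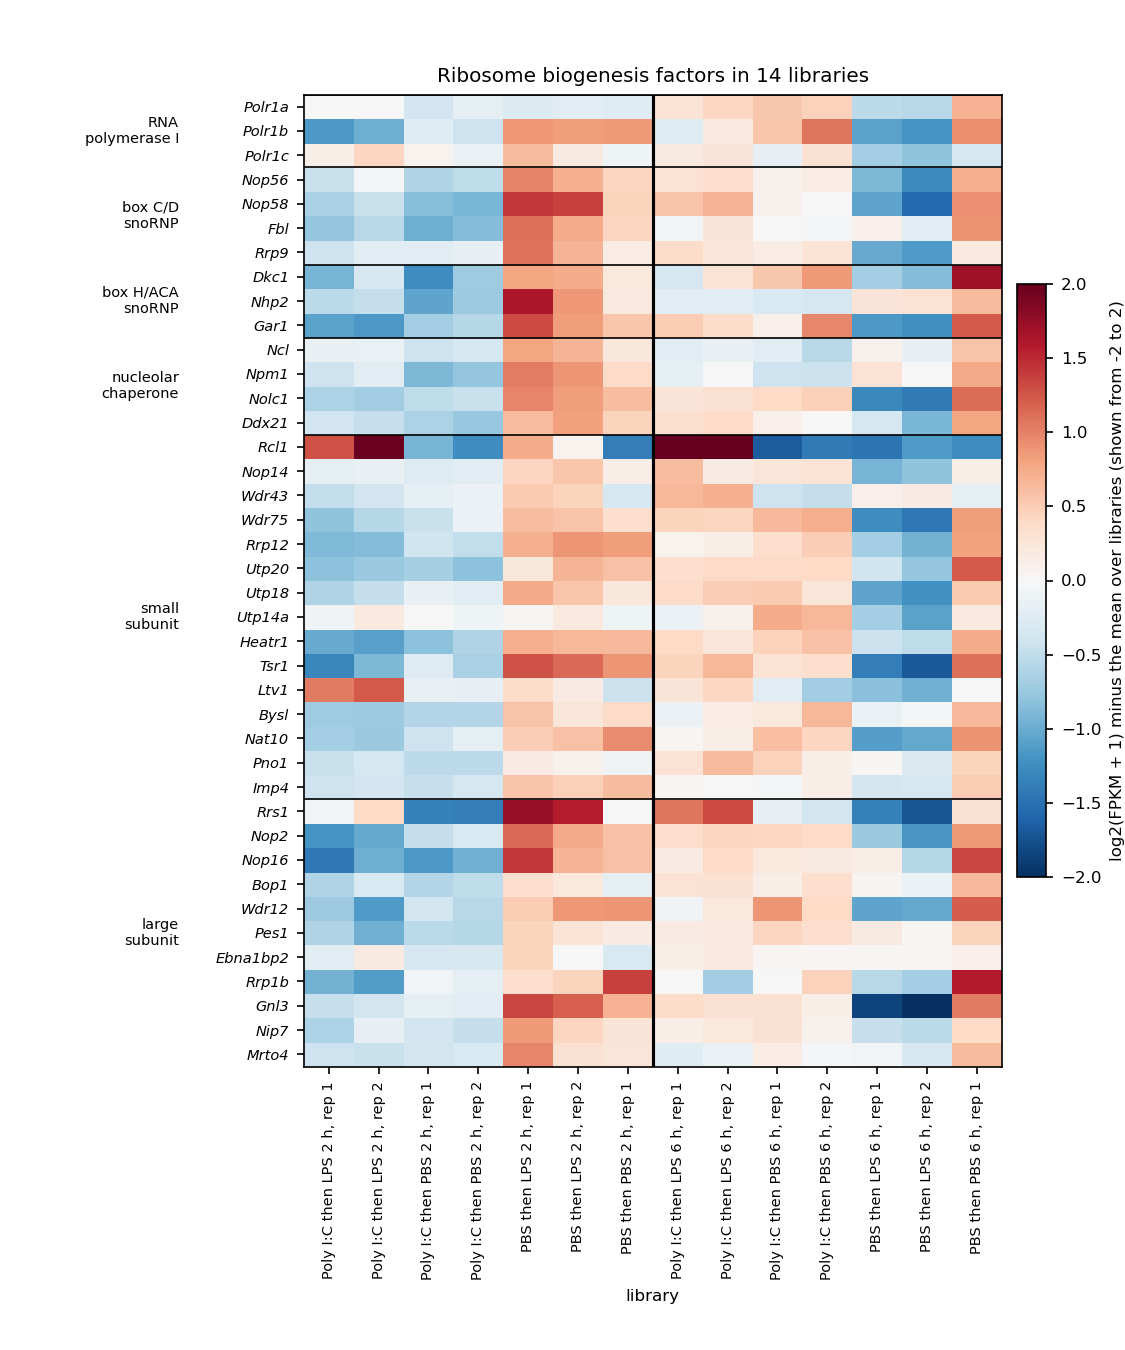
Each row is 1 of the 40 factors, grouped by role, and each column 1 of the 14 libraries. Colour gives log2(FPKM + 1) minus the gene's mean over libraries, red above and blue below. Most rows are red after PBS then LPS at 2 h and blue at 6 h, and most are bluer at 2 h than at 6 h after Poly I:C then LPS.

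Poly I:C without LPS was followed by lower levels of many factors. At 2 h after the change of medium, 27 of 40 were called lower with Poly I:C then PBS than with PBS then PBS, where 47.3% of all entries were called, 22.4% lower and 24.9% higher. The limma test called 0 higher, also at an unadjusted p under 0.05. The median was -0.98 for the factors and 0.05 for all entries. Nop16 changed by -1.64 ± 0.34, Rrp1b by -1.48 ± 0.29, Rrs1 by -1.37 ± 0.23, Heatr1 by -1.37 ± 0.17 (limma adjusted p = 8.98e-05) and Fbl, the ribose methyltransferase of box C/D snoRNPs, by -1.36 ± 0.21. At 6 h after the change, 15 were called lower, where 34.5% of all entries were called, 16.1% lower and 18.4% higher, and the median was -0.45 against 0.06. The limma test called 0 higher, and 1 was higher at an unadjusted p under 0.05. The largest were Rrp1b at -1.35 ± 0.29, Npm1 at -1.19 ± 0.16 (limma adjusted p = 3.53e-04), Nop16 at -1.14 ± 0.34, Dkc1 at -0.99 ± 0.33 and Ncl at -0.96 ± 0.16. With the PBS-then-PBS libraries of both times pooled, Dkc1 was at -0.25 and Nop16 at -0.76, neither called. Called lower at both times were 15 factors, against 12.9% of all entries. Levels with Poly I:C then PBS were higher at 6 h than at 2 h for 29 of 40 factors, where 30.4% of all entries were called, 12.3% higher and 18% lower, with a median of 0.77 against -0.02. Dkc1 changed by 1.68 ± 0.27, Nop16 by 1.26 ± 0.28 and Heatr1 by 1.24 ± 0.14 between these times.

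The comparison of Poly I:C with PBS before LPS asks how an earlier TLR3 stimulus changes levels reached after a TLR4 stimulus. Its direction differed between the times. At 2 h, Tsr1 was at 2.58 and 3.76 FPKM after Poly I:C then LPS, against 20.5 and 18.4 FPKM after PBS then LPS. At 6 h, Tsr1 was at 11.1 and 13.1 FPKM after Poly I:C then LPS, against 2.40 and 1.78 FPKM after PBS then LPS. The libraries of the 2 treatments did not overlap at either time, and their order was opposite. At 2 h, 34 of 40 factors were called lower with Poly I:C and 2 called higher, Rcl1 and Ltv1, where 61.1% of all entries were called, 28.5% lower and 32.6% higher. The median was -1.22 for the factors and 0.05 for all entries. At 6 h, 29 of 40 were called higher, where 49.6% of all entries were called, 23.7% higher and 25.9% lower, and the median was 0.92 for the factors and -0.00 for all entries. The limma test called 0 factors lower at 6 h, and 1 was lower at an unadjusted p under 0.05.

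Of the 40 factors, 24 were called both lower (2 h) and higher (6 h) with Poly I:C before LPS, a pair of calls made for 3.92% of all entries. The difference of the 2 effects was itself tested, and 38 of 40 factors were called positive, where 44.4% of all entries were called, 19.1% positive and 25.3% negative. The median difference was 2.13, against -0.06 over all entries. It was 4.39 ± 0.27 for Tsr1 (limma adjusted p = 1.37e-06), 4.22 ± 0.26 for Rrs1, 4.09 ± 0.22 for Gnl3, 3.86 ± 0.22 for Nop58 and 3.81 ± 0.35 for Gar1, a box H/ACA protein. Not called were Ebna1bp2 at 0.36 ± 0.23 and Ltv1 at 0.36 ± 0.22.

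**Figure D2:**
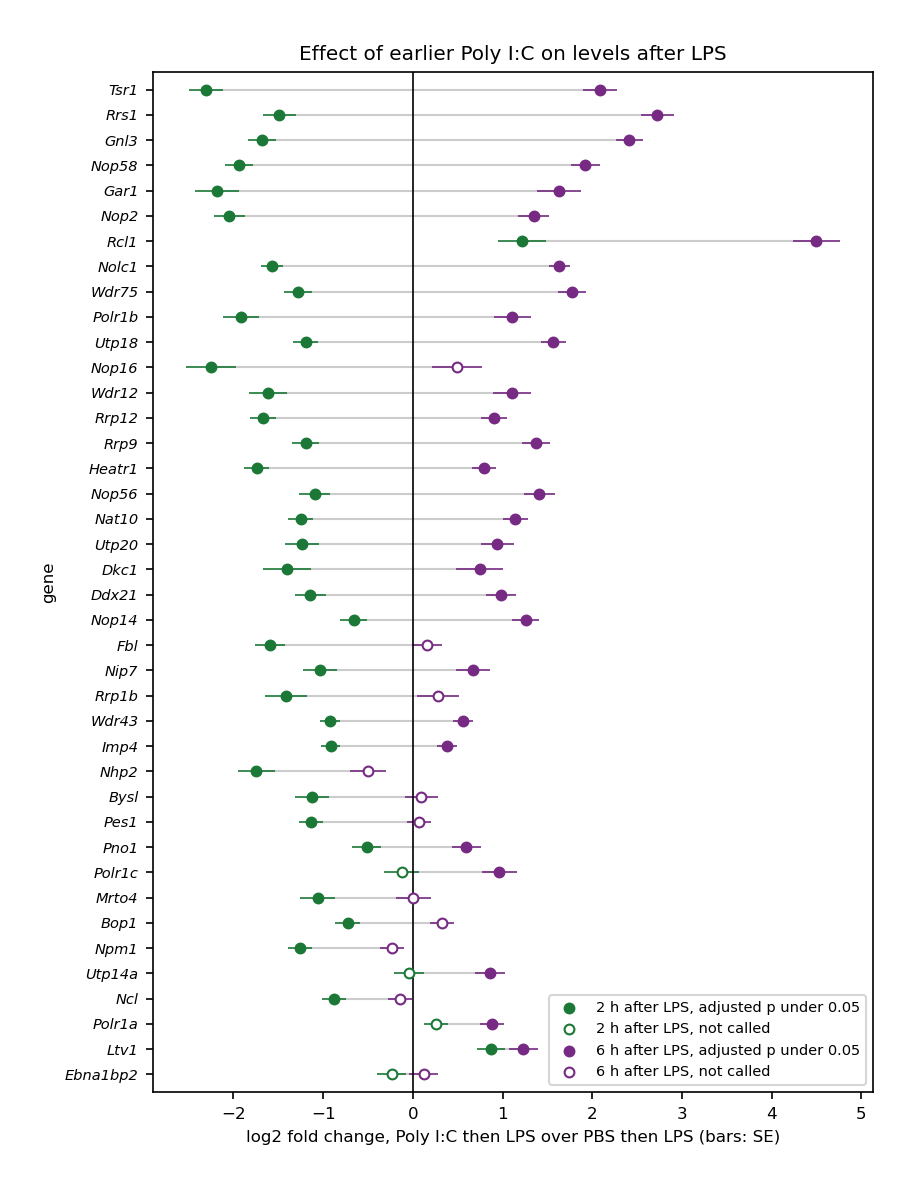
The horizontal axis gives the log2 fold change of Poly I:C then LPS over PBS then LPS for each of 40 factors, at 2 h in green and at 6 h in purple, with its standard error as a bar. Filled points were called at an adjusted p under 0.05. Most green points lie left of 0 and most purple points right of it, and Rcl1 and Ltv1 are right of 0 at both times.

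The same contrast can be read along time. Between 2 h and 6 h, 34 factors fell after PBS then LPS, as given above, whereas 30 of 40 rose after Poly I:C then LPS, where 40% of all entries were called, 14.7% higher and 25.3% lower. Ltv1 was the 1 factor called lower. The median change after Poly I:C then LPS was 0.77 for the factors, against -0.10 for all entries. A like rise was seen without LPS. After Poly I:C then PBS, 29 of 40 were called higher, against 12.3% of all entries, with a median of 0.77. Falling after PBS then LPS and rising after Poly I:C then LPS, both called, were 26 factors, a pair of calls made for 3.99% of entries. The largest rises were 1.66 ± 0.19 for Tsr1, 1.57 ± 0.27 for Rcl1, 1.55 ± 0.25 for Gar1, 1.49 ± 0.17 for Nop2 and 1.48 ± 0.28 for Nop16. By 6 h the median deviation of the factors from their own means was 0.26 and 0.27 for Poly I:C then LPS. It was 0.21 and 0.28 for Poly I:C then PBS, -0.68 and -0.84 for PBS then LPS and 0.72 for PBS then PBS.

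The next comparison asks what LPS did in cells that had received Poly I:C. Against Poly I:C then PBS, Poly I:C then LPS gave 4 factors called higher and 4 called lower at 2 h, where 22.8% of all entries were called, 14% higher and 8.72% lower. The share of factors called at 2 h was thus near that of all entries. Higher were Rcl1 at 2.71 ± 0.27, Rrs1 at 1.53 ± 0.18, Ltv1 at 1.29 ± 0.16 and Npm1 at 0.52 ± 0.13. Lower were Rrp1b at -0.92 ± 0.23, Polr1b at -0.74 ± 0.21, Nop2 at -0.71 ± 0.17 and Tsr1 at -0.65 ± 0.19. Without any 1 of the 4 libraries of this comparison, 4 or 5 factors were called. At 6 h, 5 were called higher and 4 lower, where 43.9% of all entries were called, 21.7% higher and 22.2% lower. Rcl1 changed by 4.74 ± 0.27 (limma adjusted p = 4.06e-07), Rrs1 by 1.46 ± 0.18, Wdr43 by 1.14 ± 0.11, Ltv1 by 0.80 ± 0.16 and Nop58 by 0.58 ± 0.16. Lower were Polr1b at -0.83 ± 0.21, Dkc1 at -0.73 ± 0.27, Utp14a at -0.72 ± 0.17 and Nat10 at -0.43 ± 0.14. The Dkc1 value was -0.43 without Poly I:C then LPS replicate 1. The median over the factors was -0.01 at 2 h and 0.06 at 6 h.

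Whether the response to LPS differed between cells given Poly I:C and cells given PBS was tested as an interaction. At 6 h it was called positive for 31 of 40 factors, where 29.4% of all entries were called, 12.7% positive and 16.7% negative, with a median of 1.33 against -0.07. The largest were Rcl1 at 4.80 ± 0.42 (limma adjusted p = 2.70e-05), Rrs1 at 3.30 ± 0.29, Gnl3 at 3.23 ± 0.24, Tsr1 at 2.85 ± 0.30 and Nop58 at 2.81 ± 0.25. Rcl1 changed with LPS by 4.74 ± 0.27 after Poly I:C and by -0.06 ± 0.33 after PBS, not called. Gnl3 changed with LPS by 0.12 ± 0.15 after Poly I:C, not called, and by -3.12 ± 0.19 after PBS. At 2 h, Wdr43 alone was called, at -1.12 ± 0.17 (limma adjusted p = 0.00452), where 4.29% of all entries were called, 1.77% negative and 2.52% positive. That call was lost with the 2 h libraries alone (adjusted p = 0.0613). Without PBS then LPS replicate 2, 6 factors were called.

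RNA polymerase I makes the precursor rRNA, and 3 of its subunits were among the 40 factors. Polr1b encodes the second-largest subunit. At 2 h, Polr1b stood at 0.578 and 0.788 FPKM with Poly I:C then LPS and 1.98 and 1.63 FPKM with Poly I:C then PBS, against 5.43 and 5.25 FPKM with PBS then LPS and 5.37 FPKM with PBS then PBS. At 6 h, Polr1b stood at 1.97 and 3.02 FPKM with Poly I:C then LPS and 4.14 and 6.36 FPKM with Poly I:C then PBS, against 0.671 and 0.540 FPKM with PBS then LPS and 5.68 FPKM with PBS then PBS. Its level with Poly I:C then LPS was below that with PBS then LPS at 2 h (-1.92 ± 0.21, limma adjusted p = 2.25e-05) and above it at 6 h (1.11 ± 0.21, adjusted p = 0.00138). Polr1a encodes the largest, catalytic subunit. Polr1a was measured at 3.96 and 3.99 FPKM with Poly I:C then LPS and 2.79 and 3.37 FPKM with Poly I:C then PBS, against 3.10 and 3.24 FPKM with PBS then LPS and 3.12 FPKM with PBS then PBS at 2 h. Polr1a was measured at 4.98 and 5.61 FPKM with Poly I:C then LPS and 6.16 and 5.80 FPKM with Poly I:C then PBS, against 2.43 and 2.38 FPKM with PBS then LPS and 7.04 FPKM with PBS then PBS at 6 h. The effect of earlier Poly I:C did not pass at 2 h (0.25 ± 0.13) and was positive at 6 h (0.88 ± 0.13). Polr1c, shared with RNA polymerase III, followed Polr1a, with -0.12 ± 0.20 at 2 h, not called, and 0.96 ± 0.20 at 6 h. Rrn3, the initiation factor that carries the polymerase to the rDNA promoter, was at 11.9 and 11.6 FPKM after Poly I:C then LPS at 6 h, against 5.62 and 4.40 FPKM after PBS then LPS. Ubtf, the factor that binds the rDNA promoter, was at 34.4 and 32.5 FPKM in the same Poly I:C libraries, against 24.2 and 24.2 FPKM after PBS then LPS. Both changed with Poly I:C before LPS at 6 h, Rrn3 by 1.09 ± 0.14 and Ubtf by 0.45 ± 0.12, and neither was called at 2 h, at -0.33 ± 0.14 and -0.26 ± 0.12.

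Box C/D snoRNPs methylate rRNA and, with the U3 RNA, take part in its cleavage. All 4 of their proteins were called lower at 2 h with Poly I:C before LPS, and 3 of 4 higher at 6 h. Of all entries, 28.5% were called lower at 2 h and 23.7% higher at 6 h. Nop58 (chromosome 1, 59685006 to 59711554, plus strand) shares its entry with a snoRNA gene that it hosts and is a core protein of the particle. At 2 h, Nop58 stood at 9.97 and 11.6 FPKM with Poly I:C then LPS and 8.50 and 8.14 FPKM with Poly I:C then PBS, against 44.9 and 43.3 FPKM with PBS then LPS and 22.3 FPKM with PBS then PBS. At 6 h, Nop58 stood at 24.4 and 26.3 FPKM with Poly I:C then LPS and 17.1 and 16.1 FPKM with Poly I:C then PBS, against 7.25 and 4.84 FPKM with PBS then LPS and 31.5 FPKM with PBS then PBS. The 2 h PBS-then-LPS libraries were the highest of all 14 and the 6 h ones the lowest, and the effect of earlier Poly I:C was -1.94 ± 0.16 at 2 h and 1.92 ± 0.16 at 6 h (adjusted p = 7.25e-06). Nop56, its partner in the core, lies in an entry that also names Snord57 and 3 other snoRNA genes that it hosts. In the 2 h libraries, Nop56 had 21.3 and 28.9 FPKM with Poly I:C then LPS and 19.2 and 20.4 FPKM with Poly I:C then PBS, against 59.99 and 48.9 FPKM with PBS then LPS and 40.1 FPKM with PBS then PBS. In the 6 h libraries, Nop56 had 36.3 and 38.1 FPKM with Poly I:C then LPS and 31.3 and 32.99 FPKM with Poly I:C then PBS, against 15.3 and 11.6 FPKM with PBS then LPS and 49.7 FPKM with PBS then PBS. Its effects were -1.10 ± 0.17 and 1.41 ± 0.17 at the 2 times, both called. Fbl is the enzyme of the particle. Fbl was measured at 17.9 and 21.4 FPKM with Poly I:C then LPS and 15.7 and 17.01 FPKM with Poly I:C then PBS, against 69.5 and 53.8 FPKM with PBS then LPS and 43.4 FPKM with PBS then PBS at 2 h. Fbl was measured at 30.5 and 38.5 FPKM with Poly I:C then LPS and 31.8 and 30.8 FPKM with Poly I:C then PBS, against 34.2 and 27.3 FPKM with PBS then LPS and 59.96 FPKM with PBS then PBS at 6 h. Fbl was called lower at 2 h (-1.59 ± 0.17), but at 6 h its libraries overlapped (0.16 ± 0.17, not called). Rrp9 belongs to the U3 particle. At 2 h, Rrp9 stood at 8.29 and 9.71 FPKM with Poly I:C then LPS and 9.71 and 10.1 FPKM with Poly I:C then PBS, against 25.2 and 18.8 FPKM with PBS then LPS and 12.7 FPKM with PBS then PBS. At 6 h, Rrp9 stood at 14.9 and 13.5 FPKM with Poly I:C then LPS and 12.7 and 13.9 FPKM with Poly I:C then PBS, against 5.13 and 4.60 FPKM with PBS then LPS and 13.1 FPKM with PBS then PBS. Its effects were -1.19 ± 0.15 at 2 h and 1.38 ± 0.15 at 6 h, both called.

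Box H/ACA snoRNPs convert uridines of rRNA to pseudouridine, and their proteins also belong to telomerase. Gar1 showed a large reversal. Gar1 was measured at 4.46 and 4.20 FPKM with Poly I:C then LPS and 6.23 and 6.79 FPKM with Poly I:C then PBS, against 27.4 and 19.5 FPKM with PBS then LPS and 15.9 FPKM with PBS then PBS at 2 h. Gar1 was measured at 15.3 and 13.9 FPKM with Poly I:C then LPS and 11.4 and 21.4 FPKM with Poly I:C then PBS, against 4.18 and 3.92 FPKM with PBS then LPS and 25.8 FPKM with PBS then PBS at 6 h. Earlier Poly I:C changed it by -2.18 ± 0.25 at 2 h and by 1.63 ± 0.25 at 6 h (adjusted p = 3.71e-04), with no overlap of libraries. Dkc1 encodes dyskerin, the pseudouridine synthase. At 2 h, Dkc1 stood at 2.31 and 4.04 FPKM with Poly I:C then LPS and 1.67 and 2.84 FPKM with Poly I:C then PBS, against 9.93 and 9.60 FPKM with PBS then LPS and 6.30 FPKM with PBS then PBS. At 6 h, Dkc1 stood at 4.0 and 6.62 FPKM with Poly I:C then LPS and 8.22 and 10.4 FPKM with Poly I:C then PBS, against 2.94 and 2.45 FPKM with PBS then LPS and 19.3 FPKM with PBS then PBS. The control library at 6 h stood far above that at 2 h, and the 6 h effect of earlier Poly I:C (0.74 ± 0.27, adjusted p = 0.0399) was 0.44 without Poly I:C then LPS replicate 2. The call was lost without that library and without either PBS-then-LPS library. Nhp2 is a small core protein. In the 2 h libraries, Nhp2 had 24.8 and 25.6 FPKM with Poly I:C then LPS and 16.9 and 21.3 FPKM with Poly I:C then PBS, against 113 and 66.8 FPKM with PBS then LPS and 41.3 FPKM with PBS then PBS. In the 6 h libraries, Nhp2 had 30.6 and 31.2 FPKM with Poly I:C then LPS and 29.1 and 28.5 FPKM with Poly I:C then PBS, against 43.6 and 44.6 FPKM with PBS then LPS and 56.3 FPKM with PBS then PBS. Earlier Poly I:C changed Nhp2 by -1.74 ± 0.20 at 2 h, and at 6 h both Poly I:C-then-LPS libraries were also below the PBS-then-LPS libraries (-0.50 ± 0.20, not called). The 2 PBS-then-LPS libraries of Nhp2 at 2 h lay far apart, and the rise with LPS after PBS at 2 h was 0.68 without replicate 1 of that group.

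Npm1, nucleophosmin, had the highest mean FPKM of the 40 factors. It has many processed pseudogenes, so reads may be shared and its values are uncertain. At 2 h, Npm1 stood at 111 and 129 FPKM with Poly I:C then LPS and 79.4 and 87.1 FPKM with Poly I:C then PBS, against 303 and 275 FPKM with PBS then LPS and 195 FPKM with PBS then PBS. At 6 h, Npm1 stood at 131 and 150.3 FPKM with Poly I:C then LPS and 111 and 110.3 FPKM with Poly I:C then PBS, against 183 and 149 FPKM with PBS then LPS and 254 FPKM with PBS then PBS. Npm1 was lower with Poly I:C before LPS at 2 h (-1.26 ± 0.13) and did not pass at 6 h (-0.24 ± 0.13). Ncl, nucleolin, followed it. Ncl was measured at 28.3 and 28.6 FPKM with Poly I:C then LPS and 23.5 and 24.5 FPKM with Poly I:C then PBS, against 55.2 and 50.95 FPKM with PBS then LPS and 37.0 FPKM with PBS then PBS at 2 h. Ncl was measured at 26.8 and 28.5 FPKM with Poly I:C then LPS and 26.9 and 21.1 FPKM with Poly I:C then PBS, against 33.4 and 28.02 FPKM with PBS then LPS and 47.5 FPKM with PBS then PBS at 6 h. Its effects were -0.88 ± 0.13 at 2 h and -0.14 ± 0.13 at 6 h, the second not called. Nolc1 differed from both. At 2 h, Nolc1 stood at 5.22 and 4.94 FPKM with Poly I:C then LPS and 5.81 and 6.11 FPKM with Poly I:C then PBS, against 17.98 and 16.2 FPKM with PBS then LPS and 13.7 FPKM with PBS then PBS. At 6 h, Nolc1 stood at 10.5 and 10.96 FPKM with Poly I:C then LPS and 11.6 and 12.4 FPKM with Poly I:C then PBS, against 2.96 and 2.60 FPKM with PBS then LPS and 19.9 FPKM with PBS then PBS. It changed by -1.57 ± 0.12 at 2 h and by 1.63 ± 0.12 at 6 h (adjusted p = 3.36e-06) with no overlap of libraries. Ddx21, an RNA helicase of rRNA transcription and processing, moved the same way. In the 2 h libraries, Ddx21 had 12.9 and 12.1 FPKM with Poly I:C then LPS and 10.7 and 9.72 FPKM with Poly I:C then PBS, against 26.8 and 30.9 FPKM with PBS then LPS and 23.6 FPKM with PBS then PBS. In the 6 h libraries, Ddx21 had 21.7 and 22.5 FPKM with Poly I:C then LPS and 18.4 and 17.3 FPKM with Poly I:C then PBS, against 13.1 and 8.62 FPKM with PBS then LPS and 30.4 FPKM with PBS then PBS. Its effects were -1.14 ± 0.17 and 0.99 ± 0.17.

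Of 15 small subunit factors, 12 were called lower and 2 higher at 2 h with Poly I:C before LPS, with a median of -1.12. At 6 h, 14 were called higher, with a median of 0.94. Over all entries, 28.5% were called lower and 32.6% higher at 2 h, and 23.7% higher at 6 h. Tsr1 (chromosome 11, 74898071 to 75164448, plus strand, the assembled locus, which holds 9 entries) had the largest reversal. At 2 h, Tsr1 stood at 2.58 and 3.76 FPKM with Poly I:C then LPS and 6.44 and 4.66 FPKM with Poly I:C then PBS, against 20.5 and 18.4 FPKM with PBS then LPS and 15.3 FPKM with PBS then PBS. At 6 h, Tsr1 stood at 11.1 and 13.1 FPKM with Poly I:C then LPS and 9.86 and 10.3 FPKM with Poly I:C then PBS, against 2.40 and 1.78 FPKM with PBS then LPS and 17.9 FPKM with PBS then PBS. After LPS in PBS-first cells Tsr1 was highest at 2 h and lowest at 6 h, and in Poly I:C-first cells both treatments were lower at 2 h than at 6 h. The effects of earlier Poly I:C were -2.30 ± 0.19 and 2.09 ± 0.19. Heatr1 and Utp20 are large scaffold proteins of the processome around the U3 snoRNP. Heatr1 was measured at 2.53 and 2.33 FPKM with Poly I:C then LPS and 3.002 and 3.65 FPKM with Poly I:C then PBS, against 10.7 and 10.2 FPKM with PBS then LPS and 10.1 FPKM with PBS then PBS at 2 h. Heatr1 was measured at 8.39 and 7.36 FPKM with Poly I:C then LPS and 8.79 and 9.67 FPKM with Poly I:C then PBS, against 4.29 and 3.97 FPKM with PBS then LPS and 10.9 FPKM with PBS then PBS at 6 h. Heatr1 changed by -1.74 ± 0.14 at 2 h (adjusted p = 2.31e-06) and by 0.79 ± 0.14 at 6 h. At 2 h, Utp20 stood at 0.618 and 0.713 FPKM with Poly I:C then LPS and 0.801 and 0.617 FPKM with Poly I:C then PBS, against 2.35 and 3.60 FPKM with PBS then LPS and 3.27 FPKM with PBS then PBS. At 6 h, Utp20 stood at 2.59 and 2.74 FPKM with Poly I:C then LPS and 2.73 and 2.79 FPKM with Poly I:C then PBS, against 1.17 and 0.680 FPKM with PBS then LPS and 5.68 FPKM with PBS then PBS. Utp20, present at a few FPKM or less, changed by -1.24 ± 0.19 and 0.94 ± 0.19. Rrp12 takes part in subunit export in yeast. Rrp12 was measured at 0.878 and 0.902 FPKM with Poly I:C then LPS and 1.62 and 1.48 FPKM with Poly I:C then PBS, against 4.68 and 5.39 FPKM with PBS then LPS and 5.17 FPKM with PBS then PBS at 2 h. Rrp12 was measured at 2.65 and 2.79 FPKM with Poly I:C then LPS and 3.43 and 3.87 FPKM with Poly I:C then PBS, against 1.17 and 0.811 FPKM with PBS then LPS and 5.07 FPKM with PBS then PBS at 6 h. Its effects were -1.67 ± 0.15 and 0.91 ± 0.15.

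Nat10 acetylates cytidines of the small subunit rRNA. At 2 h, Nat10 stood at 2.08 and 1.97 FPKM with Poly I:C then LPS and 2.72 and 3.37 FPKM with Poly I:C then PBS, against 5.95 and 6.45 FPKM with PBS then LPS and 8.54 FPKM with PBS then PBS. At 6 h, Nat10 stood at 4.08 and 4.41 FPKM with Poly I:C then LPS and 6.49 and 5.62 FPKM with Poly I:C then PBS, against 1.31 and 1.44 FPKM with PBS then LPS and 8.19 FPKM with PBS then PBS. The 6 h PBS-then-LPS libraries were the lowest of all 14, and the effects of earlier Poly I:C were -1.25 ± 0.14 and 1.14 ± 0.14. Pno1 acts in the last cut of the small subunit rRNA, which the nuclease Nob1 makes. In the 2 h libraries, Pno1 had 16.5 and 17.7 FPKM with Poly I:C then LPS and 15.5 and 15.5 FPKM with Poly I:C then PBS, against 25.5 and 24.1 FPKM with PBS then LPS and 21.6 FPKM with PBS then PBS. In the 6 h libraries, Pno1 had 28.1 and 35.7 FPKM with Poly I:C then LPS and 31.9 and 24.7 FPKM with Poly I:C then PBS, against 23.1 and 18.4 FPKM with PBS then LPS and 31.4 FPKM with PBS then PBS. Its changes were small, -0.51 ± 0.16 at 2 h and 0.60 ± 0.16 at 6 h, both called, though each call was lost with no filter and without some single libraries. The 6 h calls of Imp4 and Nip7 were also lost without some single libraries. Wdr43, a processome protein, differed in its response to LPS. Wdr43 was measured at 9.52 and 10.3 FPKM with Poly I:C then LPS and 11.9 and 12.6 FPKM with Poly I:C then PBS, against 20.1 and 19.1 FPKM with PBS then LPS and 10.5 FPKM with PBS then PBS at 2 h. Wdr43 was measured at 22.4 and 23.2 FPKM with Poly I:C then LPS and 10.01 and 9.55 FPKM with Poly I:C then PBS, against 14.8 and 15.4 FPKM with PBS then LPS and 11.9 FPKM with PBS then PBS at 6 h. In PBS-first cells LPS raised it at 2 h (0.84 ± 0.13), and in Poly I:C-first cells LPS raised it at 6 h (1.14 ± 0.11, limma adjusted p = 1.35e-05) and not at 2 h (-0.28 ± 0.11, not called). The processome proteins Nop14 and Imp4 changed by -0.66 ± 0.15 and -0.91 ± 0.11 at 2 h and by 1.26 ± 0.15 and 0.38 ± 0.11 at 6 h. Utp14a, another, was not called at 2 h (-0.04 ± 0.17) and was higher at 6 h (0.86 ± 0.17). Wdr75 and Utp18 had 6 h effects of 1.77 ± 0.15 and 1.56 ± 0.14, and Bysl was the 1 small subunit factor not called at 6 h (0.10 ± 0.19).

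Rcl1 and Ltv1 were exceptions among the 40, being higher with Poly I:C before LPS at both times. Rcl1 (chromosome 19, 29101375 to 29143869, plus strand) is an assembly factor that in yeast is needed for cleavage of the precursor rRNA. At 2 h, Rcl1 stood at 39.3 and 64.9 FPKM with Poly I:C then LPS and 7.75 and 6.07 FPKM with Poly I:C then PBS, against 26.95 and 16.5 FPKM with PBS then LPS and 5.37 FPKM with PBS then PBS. At 6 h, Rcl1 stood at 152 and 152 FPKM with Poly I:C then LPS and 4.26 and 5.26 FPKM with Poly I:C then PBS, against 5.03 and 6.58 FPKM with PBS then LPS and 6.07 FPKM with PBS then PBS. At 6 h both Poly I:C-then-LPS libraries stood far above every other 6 h library, and the other groups of that time lay close together. Earlier Poly I:C changed Rcl1 by 1.22 ± 0.27 at 2 h (adjusted p = 0.00256) and by 4.50 ± 0.27 at 6 h (limma adjusted p = 8.96e-07), and the level after Poly I:C then LPS rose further between the times. Ltv1, a factor that small subunit precursors lose as they mature, was highest at 2 h. Ltv1 was measured at 41.6 and 47.6 FPKM with Poly I:C then LPS and 17.8 and 17.5 FPKM with Poly I:C then PBS, against 25.6 and 22.2 FPKM with PBS then LPS and 14.4 FPKM with PBS then PBS at 2 h. Ltv1 was measured at 23.9 and 26.5 FPKM with Poly I:C then LPS and 16.6 and 11.9 FPKM with Poly I:C then PBS, against 10.7 and 9.61 FPKM with PBS then LPS and 19.5 FPKM with PBS then PBS at 6 h. Its effects were 0.87 ± 0.16 at 2 h and 1.23 ± 0.16 at 6 h, and LPS raised it after both first stimuli at 2 h. The 2 h call with LPS after PBS was lost with no filter and with the 2 h libraries alone.

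**Figure D3:**
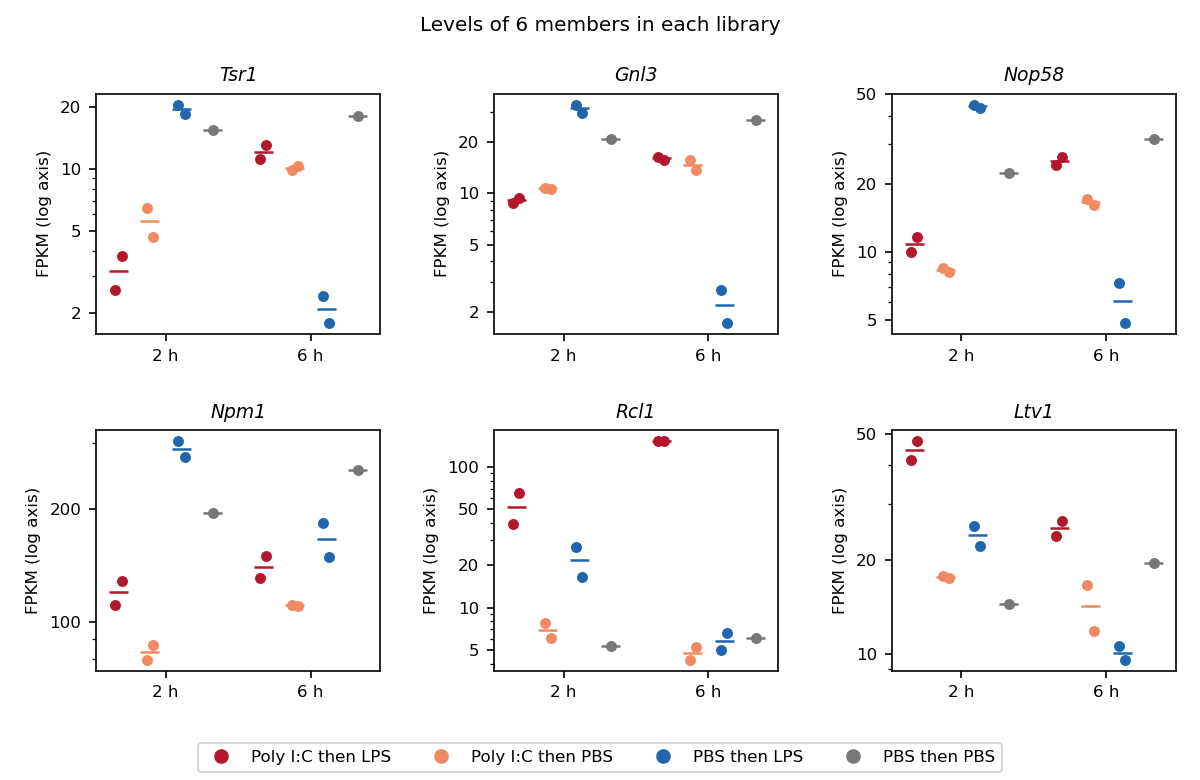
FPKM of 6 factors in every library, on log axes, with points for libraries and a short line for the group mean. Tsr1, Gnl3 and Nop58 stand lower after Poly I:C then LPS than after PBS then LPS at 2 h and higher at 6 h. Npm1 is lower at 2 h and overlaps at 6 h. Rcl1 and Ltv1 are higher at both times.

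Of 11 large subunit factors, 10 were called lower at 2 h with Poly I:C before LPS, with a median of -1.42. At 6 h, 5 were called higher, with a median of 0.49. Over all entries, 28.5% were called lower at 2 h and 23.7% higher at 6 h. Gnl3 (chromosome 14, 30999826 to 31128978, minus strand, the assembled locus) had the strongest late fall. At 2 h, Gnl3 stood at 8.73 and 9.42 FPKM with Poly I:C then LPS and 10.7 and 10.6 FPKM with Poly I:C then PBS, against 33.02 and 29.6 FPKM with PBS then LPS and 20.8 FPKM with PBS then PBS. At 6 h, Gnl3 stood at 16.4 and 15.6 FPKM with Poly I:C then LPS and 15.7 and 13.7 FPKM with Poly I:C then PBS, against 2.72 and 1.73 FPKM with PBS then LPS and 26.7 FPKM with PBS then PBS. Both Poly I:C groups kept similar levels at 6 h, many times those after PBS then LPS. Rrs1 (chromosome 1, 9545408 to 9547454, plus strand) was raised by LPS at 2 h after both first stimuli. Rrs1 was measured at 11.96 and 16.7 FPKM with Poly I:C then LPS and 4.28 and 4.20 FPKM with Poly I:C then PBS, against 44.3 and 38.9 FPKM with PBS then LPS and 12.6 FPKM with PBS then PBS at 2 h. Rrs1 was measured at 27.3 and 32.3 FPKM with Poly I:C then LPS and 10.96 and 9.40 FPKM with Poly I:C then PBS, against 4.28 and 3.07 FPKM with PBS then LPS and 15.6 FPKM with PBS then PBS at 6 h. LPS raised it by 1.53 ± 0.18 at 2 h and by 1.46 ± 0.18 at 6 h after Poly I:C, while after PBS the change was 1.65 ± 0.23 at 2 h and -1.84 ± 0.23 at 6 h. Nop2, an rRNA cytosine methyltransferase, had a large reversal. In the 2 h libraries, Nop2 had 3.68 and 4.26 FPKM with Poly I:C then LPS and 6.62 and 7.61 FPKM with Poly I:C then PBS, against 22.3 and 16.98 FPKM with PBS then LPS and 14.9 FPKM with PBS then PBS. In the 6 h libraries, Nop2 had 12.6 and 13.4 FPKM with Poly I:C then LPS and 13.1 and 12.9 FPKM with Poly I:C then PBS, against 5.35 and 3.75 FPKM with PBS then LPS and 18.3 FPKM with PBS then PBS. Its effects were -2.04 ± 0.17 at 2 h (adjusted p = 4.32e-06) and 1.35 ± 0.17 at 6 h. Nop16 is a nucleolar protein of large subunit assembly. At 2 h, Nop16 stood at 2.68 and 4.04 FPKM with Poly I:C then LPS and 3.47 and 4.12 FPKM with Poly I:C then PBS, against 25.5 and 14.9 FPKM with PBS then LPS and 13.9 FPKM with PBS then PBS. At 6 h, Nop16 stood at 10.1 and 11.9 FPKM with Poly I:C then LPS and 10.6 and 10.3 FPKM with Poly I:C then PBS, against 9.91 and 5.68 FPKM with PBS then LPS and 24.1 FPKM with PBS then PBS. It changed by -2.25 ± 0.28 at 2 h and did not pass at 6 h (0.49 ± 0.28), where the PBS-then-LPS libraries lay far apart.

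Bop1, Pes1 and Wdr12 form the PeBoW complex of large subunit maturation, and they did not move by like amounts. Wdr12 was measured at 2.18 and 1.41 FPKM with Poly I:C then LPS and 3.06 and 2.61 FPKM with Poly I:C then PBS, against 6.48 and 8.58 FPKM with PBS then LPS and 8.74 FPKM with PBS then PBS at 2 h. Wdr12 was measured at 4.02 and 5.07 FPKM with Poly I:C then LPS and 8.67 and 5.91 FPKM with Poly I:C then PBS, against 1.53 and 1.59 FPKM with PBS then LPS and 11.2 FPKM with PBS then PBS at 6 h. Wdr12 changed by -1.61 ± 0.21 at 2 h and by 1.11 ± 0.21 at 6 h. At 2 h, Pes1 stood at 15.4 and 11.9 FPKM with Poly I:C then LPS and 16.2 and 15.8 FPKM with Poly I:C then PBS, against 33.1 and 29.1 FPKM with PBS then LPS and 26.8 FPKM with PBS then PBS. At 6 h, Pes1 stood at 26.8 and 27.5 FPKM with Poly I:C then LPS and 32.8 and 30.4 FPKM with Poly I:C then PBS, against 27.3 and 24.6 FPKM with PBS then LPS and 33.02 FPKM with PBS then PBS. For Pes1 the change was -1.14 ± 0.13 at 2 h, but its levels at 6 h differed little (0.07 ± 0.13, not called). In the 2 h libraries, Bop1 had 10.4 and 13.1 FPKM with Poly I:C then LPS and 10.5 and 11.2 FPKM with Poly I:C then PBS, against 20.9 and 19.1 FPKM with PBS then LPS and 14.3 FPKM with PBS then PBS. In the 6 h libraries, Bop1 had 20.2 and 20.3 FPKM with Poly I:C then LPS and 17.98 and 20.8 FPKM with Poly I:C then PBS, against 16.9 and 15.01 FPKM with PBS then LPS and 26.1 FPKM with PBS then PBS. Bop1 gave -0.73 ± 0.14 at 2 h and 0.33 ± 0.14 at 6 h, the second not called. Mrto4, which helps place the stalk of the large subunit, moved as Pes1 did, at 2 h only. At 2 h, Mrto4 stood at 13.1 and 12.9 FPKM with Poly I:C then LPS and 13.6 and 14.3 FPKM with Poly I:C then PBS, against 35.9 and 22.2 FPKM with PBS then LPS and 21.3 FPKM with PBS then PBS. At 6 h, Mrto4 stood at 14.9 and 16.2 FPKM with Poly I:C then LPS and 19.8 and 17.5 FPKM with Poly I:C then PBS, against 17.02 and 14.1 FPKM with PBS then LPS and 28.2 FPKM with PBS then PBS. Its effects were -1.06 ± 0.19 and 0.01 ± 0.19, the second not called. Nip7 changed by -1.04 ± 0.19 at 2 h and by 0.67 ± 0.19 at 6 h, and Rrp1b by -1.42 ± 0.23 at 2 h and not past the threshold at 6 h (0.28 ± 0.23). Ebna1bp2 varied least of the 40 over the 8 groups, and was called in none of the 14 comparisons.

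By group mean, 17 factors were highest after PBS then LPS at 2 h and 15 in the PBS-then-PBS library at 6 h. The lowest group was PBS then LPS at 6 h for 19, Poly I:C then PBS at 2 h for 10 and Poly I:C then LPS at 2 h for 9. The ratio of highest to lowest mean was 31.9 for Rcl1, 19.6 for Rrp1b, 14.1 for Gnl3 and 11.3 for Rrs1. Rrp1b, a nucleolar protein of low abundance here, was at 0.458 and 0.299 FPKM after Poly I:C then LPS at 2 h and at 7.43 FPKM in the PBS-then-PBS library at 6 h.

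Some of the factors are hosts of snoRNAs, which are made from introns. GENCODE places 21 snoRNA genes inside 7 of them, with 5 in Nop56, 4 in Nop58, 3 each in Ncl, Wdr43 and Gnl3, 2 in Tsr1 and 1 in Dkc1. The median change with LPS after PBS at 6 h was -2.23 for the 7 hosts and -1.21 for the other 33 factors, and the median interaction at 6 h was 2.03 and 1.23. Among the hosts, Gnl3, Tsr1 and Nop58 were at the top of the 6 h interaction, while Wdr43 and Ncl were at 0.82 ± 0.17 and 0.82 ± 0.21. These medians are descriptions, with no test. FPKM of a merged entry covers the snoRNA as well, and polyadenylated RNA is not a measure of snoRNAs.

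Other genes of the pathway were counted from lists outside the 40. Over all entries, 28.5% were called lower and 32.6% higher at 2 h with Poly I:C before LPS. At 6 h, 23.7% were called higher and 25.9% lower. Of 41 further small subunit genes, 29 were called lower and 2 higher at 2 h with Poly I:C before LPS, and 28 higher and 3 lower at 6 h, with medians of -0.66 and 0.58. Nob1, the nuclease of the last cut, averaged 2.20 FPKM after Poly I:C then LPS at 2 h, against 15.5 FPKM after PBS then LPS. At 6 h Nob1 averaged 9.88 FPKM after Poly I:C then LPS, against 2.87 FPKM after PBS then LPS. Of 41 further large subunit genes, 28 were lower at 2 h and 31 higher at 6 h, with medians of -0.70 and 0.86. Rrp15 changed by -2.45 ± 0.20 at 2 h and by 1.17 ± 0.20 at 6 h, and the GTPase gene Gtpbp4 by -1.16 ± 0.16 and 1.76 ± 0.16. Of 15 further genes of RNA polymerase I transcription, 8 were lower and 2 higher at 2 h, and 8 higher and 1 lower at 6 h. Their medians were -0.52 and 0.45, and Polr1e was at -1.37 ± 0.20 and 1.17 ± 0.20. Of 12 snoRNP assembly partners, 10 were lower at 2 h, and 4 higher and 3 lower at 6 h, with medians of -0.88 and 0.29. Nop10, the fourth core protein of box H/ACA snoRNPs, was lower at both times, at -2.17 ± 0.21 and -0.78 ± 0.21. Of 14 exosome and rRNA trimming genes, 10 were lower and 1 higher at 2 h, and 5 higher at 6 h, with medians of -0.77 and 0.24.

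Genes of RNA polymerase III gave 8 lower and 2 higher of 19 at 2 h, and 6 higher and 2 lower at 6 h. Of all entries, 61.1% were called at 2 h and 49.6% at 6 h, in either direction. The medians of these genes were small, -0.34 at 2 h and 0.13 at 6 h. Polr3e, at -1.37 ± 0.14 and 1.68 ± 0.14, does not stand for the list. The proteins of the ribosome itself were mostly lower at both times. Of 20 cytosolic ribosomal protein genes, 18 were lower and 1 higher at 2 h with Poly I:C before LPS, and 15 lower and 1 higher at 6 h, with medians of -1.22 and -0.58. Rpl3 averaged 60.8 FPKM after Poly I:C then LPS at 2 h, against 449.8 FPKM after PBS then LPS. At 6 h Rpl3 averaged 62.3 FPKM after Poly I:C then LPS, against 312 FPKM after PBS then LPS. Many ribosomal protein genes have processed pseudogenes, so their values are uncertain. In the test of the difference between 6 h and 2 h, 7 of the 20 were called positive, with a median of 0.59, whereas 35 of 41 large subunit genes and 32 of 41 small subunit genes were, with medians of 1.63 and 1.21. Background shares for these comparisons are those given above for all entries.

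The MYC network was set beside the factors, since its members are known to act on this pathway. Myc was at 6.31 and 5.59 FPKM after Poly I:C then LPS at 2 h, against 17.3 and 18.5 FPKM after PBS then LPS. At 6 h it was at 1.24 and 1.24 FPKM after Poly I:C then LPS, against 15.9 and 12.2 FPKM after PBS then LPS. Myc was thus lower with Poly I:C before LPS at both times (-1.44 ± 0.18 and -2.74 ± 0.18, limma adjusted p = 1.63e-06), also at 6 h, when most factors were higher. Mxd1, the partner of MAX that represses, was at 77.4 and 57.04 FPKM after Poly I:C then LPS at 2 h, against 6.50 and 6.33 FPKM after PBS then LPS. At 6 h it was at 25.1 and 20.3 FPKM after Poly I:C then LPS, against 115 and 158 FPKM after PBS then LPS. Earlier Poly I:C changed Mxd1 by 3.19 ± 0.19 at 2 h and by -2.53 ± 0.19 at 6 h, and these effects differed by -5.71 ± 0.28 (limma adjusted p = 3.70e-07). The PBS-then-PBS libraries held 1.04 FPKM of Mxd1 at 2 h and 1.75 FPKM at 6 h.

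Max changed in the same order as Mxd1, by 1.19 ± 0.11 at 2 h and by -1.07 ± 0.11 at 6 h with Poly I:C before LPS. It was at 80.6 and 74.3 FPKM after Poly I:C then LPS at 2 h, against 34.9 and 31.8 FPKM after PBS then LPS. At 6 h Max was at 55.8 and 57.7 FPKM after Poly I:C then LPS, against 112 and 129.8 FPKM after PBS then LPS. Groups low in the factors were thus high in Mxd1 and Max, and PBS then LPS at 6 h was the extreme of each. Mycn was listed at 0 in all 14 libraries. Whether these levels have a part in those of the factors was not tested.

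**Figure D4:**
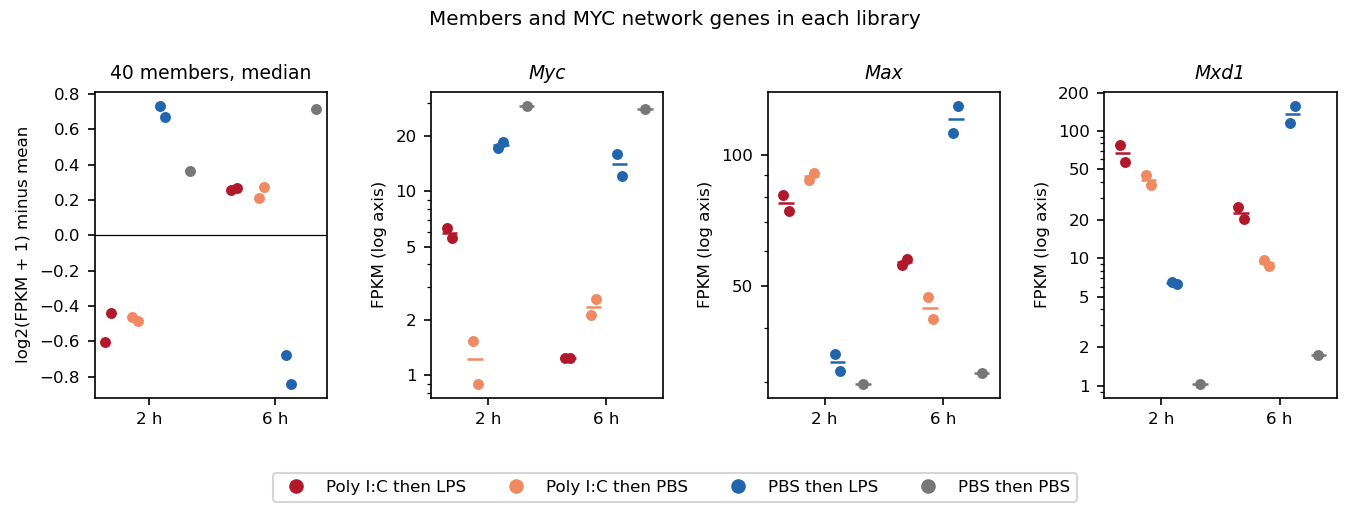
The left panel gives, for each library, the median over 40 factors of log2(FPKM + 1) minus each gene's mean over libraries. The other panels give FPKM of Myc, Max and Mxd1 on log axes, with a short line for the group mean. Max and Mxd1 are highest after PBS then LPS at 6 h, where the factors are lowest, while Myc is lower in all Poly I:C groups than in the PBS-first groups.

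Promoters were searched for the E-box CACGTG, which reads the same on both strands, because the factors moved together and the network binds there. RefSeq promoters on GRCm38.p6, 250 bases before to 50 after the start, were at hand for 35 of the 40, without Rrs1, Fbl, Npm1, Bop1 and Rrp12. The E-box was found in 9 of these, or 25.7%, whereas 11.9% of 8701 tested genes and 8.09% of 27025 genes with a promoter held it. The sites of these 9 are shown in 30 bases each, in the direction of the gene, with the E-box in capitals.
Imp4 (chr1:34439696-34439725, plus strand): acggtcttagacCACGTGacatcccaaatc
Nop2 (chr6:125131811-125131840, plus strand): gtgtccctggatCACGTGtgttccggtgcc
Ltv1 (chr10:13193092-13193121, minus strand): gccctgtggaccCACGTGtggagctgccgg
Utp20 (chr10:88826765-88826794, minus strand): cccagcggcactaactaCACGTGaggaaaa
Pes1 (chr11:3963965-3963994, plus strand): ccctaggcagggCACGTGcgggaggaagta
Pno1 (chr11:17211540-17211569, minus strand): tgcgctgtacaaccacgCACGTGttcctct
Tsr1 (chr11:74898092-74898121, plus strand): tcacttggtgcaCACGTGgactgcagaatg
Utp18 (chr11:93885769-93885798, minus strand): gcgagcgccggtCACGTGgcttgcggcggc
Wdr43 (chr17:71616220-71616249, plus strand): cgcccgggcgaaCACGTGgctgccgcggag
The median effect of Poly I:C before LPS was -1.14 for the 9 and -1.22 for the other 26 at 2 h, and 0.94 and 0.97 at 6 h. The median difference between the times was 1.48 for the 9 and 2.27 for the other 26. These are descriptions, with no test. A match is not a site of binding, and the others may hold sites outside this window. The box CCAAT, searched on both strands, was in 15 of 35 promoters, or 42.9%, against 43.0% of tested genes.

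The promoter of Rcl1 is shown because this gene had the largest change with LPS after Poly I:C at both times. It held the NF-kB consensus, which was found in 2 of 35 promoters, or 5.71%, against 6.31% of tested genes, and 3 CCAAT boxes. The 250 bases before the start are given on GRCm38.p6, with the consensus and the 3 boxes in capitals.
Rcl1 (chr19:29101125-29101374, plus strand): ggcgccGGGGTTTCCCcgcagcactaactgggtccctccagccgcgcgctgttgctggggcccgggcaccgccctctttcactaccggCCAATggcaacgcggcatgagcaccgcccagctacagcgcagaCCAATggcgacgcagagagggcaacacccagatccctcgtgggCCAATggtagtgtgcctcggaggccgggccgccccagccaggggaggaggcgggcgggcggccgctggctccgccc
The other match was in Tsr1, which with Poly I:C before LPS at 2 h was lower, where Rcl1 was higher.
Tsr1 (chr11:74897885-74897914, plus strand): agccggagccGGGAGACTCCtgccggcatc

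Markers of dividing cells, 7 genes with an entry of their own, summed to 39.7 and 40.3 FPKM after Poly I:C then LPS at 2 h and to 15.1 and 15.8 FPKM at 6 h. After PBS then LPS they summed to 327 and 381 FPKM at 2 h and 144 and 148 FPKM at 6 h. Pairs of sums are given here with the lower library first. Mki67 alone made 32.9 and 31.5 FPKM of the sums after Poly I:C then LPS at 2 h, in that order. The sums were lower in Poly I:C-first cells at both times. With Poly I:C before LPS, 6 of 7 were called lower at each time, against 28.5% and 25.9% of all entries. Mki67 differed, at 26.9 and 36.6 FPKM after PBS then LPS at 2 h. At 6 h it was at 9.31 and 7.79 FPKM after Poly I:C then LPS, against 8.46 and 6.37 FPKM after PBS then LPS. The difference between 6 h and 2 h was called positive for 3 of 7 and negative for 0, with a median of 1.09. Over all entries, 19.1% were positive and 25.3% negative. The part of dividing cells was not tested. Macrophage markers, 8 genes with an entry, summed to 5361 to 8660 FPKM in Poly I:C-first libraries and 13860 to 20640 FPKM in PBS-first libraries at both times. Lyz2 was the largest part of each sum, at 2408 to 4397 FPKM in Poly I:C-first libraries and 10930 to 16240 FPKM in PBS-first libraries. Of the 8 macrophage markers, 3 were called higher and 5 lower with Poly I:C before LPS at 2 h, and 0 higher and 6 lower at 6 h by limma. Fcgr1 was at 578 and 548 FPKM after Poly I:C then LPS at 2 h, against 43.3 and 30.9 FPKM after PBS then LPS. Stromal markers moved with the comparison at 2 h, summing to 39.5 and 102.6 FPKM after Poly I:C then LPS, against 13.6 and 14.5 FPKM after PBS then LPS, with 3 of 4 tested called higher and a median of 1.78. At 6 h they summed to 41.2 and 50.7 FPKM after Poly I:C then LPS, against 21.4 and 56.04 FPKM after PBS then LPS, with 2 of 4 called higher. Dendritic cell markers summed to 9.79 and 10.2 FPKM after Poly I:C then LPS at 2 h, against 2.85 and 3.41 FPKM after PBS then LPS. Among them Xcr1 was at 8.94 and 7.92 FPKM after Poly I:C then LPS at 2 h, against 1.68 and 1.26 FPKM after PBS then LPS. At 6 h the dendritic cell markers summed to 4.07 and 4.21 FPKM after Poly I:C then LPS, against 3.37 and 3.93 FPKM after PBS then LPS. Neutrophil markers summed to 7.20 and 8.33 FPKM after Poly I:C then LPS at 6 h, against 1.63 and 2.06 FPKM after PBS then LPS, and B cell markers to under 1 FPKM in every library. The part of these markers in the results was not tested.

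Counting limits bear on some entries. Of the 40 factors, 13 overlap a protein-coding gene on the other strand in GENCODE, Tsr1 and Gnl3 among them. The library kit keeps strand, but whether counting used it is not given in the sources used here, so reads of the partners may not be told apart. Nop56 and Nop58 are in entries that name other genes as well, and with entries naming 1 gene only, Poly I:C before LPS gave 32 lower and 2 higher of 38 factors at 2 h and 27 higher at 6 h.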

How the data were processed

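RNA of 14 libraries was sequenced on an Illumina NextSeq as paired reads of 76 bp from a stranded poly(A) kit, per the labels' protocols. The deposited values are FPKM per assembled gene entry, which the authors made with TopHat2, Cufflinks and Cuffnorm, per the submitters' processing notes. Versions and whether counting used strand are not given in the sources used here. The notes name mm9, but all 40 factors overlap the GRCm38 gene of their name, so coordinates are given as GRCm38. Of 39721 entries, 1859 carry no name and 1066 name several genes. For Dkc1, which has 2 entries, the one of higher mean was used.

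The 11977 entries reaching 1 FPKM in 2 or more libraries were tested on log2(FPKM + 1), a pseudocount of 1, with limma 3.58.1 in R 4.3.3, with 1 mean per group, a variance trend, and Benjamini-Hochberg adjustment over all tested entries. Each PBS-then-PBS group holds 1 library, assumed to vary like the other groups. Tables and figures were made with Python 3.11.15, pandas 2.3.3 and matplotlib 3.10.9. The fit was also run on data simulated from its own means and variances, with independent noise. That run cannot show how shifts shared within a library, or a lone control, affect the calls. Depth in reads is unknown, so no counting intervals are given. Alternatives were median-of-ratios scaling, a pseudocount of 0.1, all entries unfiltered, a fit without the trend, libraries of 1 time alone, a pooled control, entries of 1 gene only, a replicate block and leaving out each library. The factors and lists were chosen with earlier results of these data known. Values per library were given for 30 factors fixed by name and for the 5 largest called, non-overlapping changes each way, and up to 3 called genes were eligible from each list.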

Additional observations from a re-analysis of the deposited data

Results flagged for a closer look

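The response to LPS differed between cells given Poly I:C and cells given PBS in an interaction test with limma. At 6 h this held for 31 of 40 factors, where 29.4% of all entries were called. Values were 4.80 for Rcl1, 3.30 for Rrs1, 3.23 for Gnl3, 2.85 for Tsr1 and 2.81 for Nop58. At 2 h it held for 1 factor, Wdr43, at -1.12, where 4.29% of all entries were called. That call was lost with the 2 h libraries alone. The effect of Poly I:C before LPS differed between 6 h and 2 h for 38 factors, where 44.4% of all entries were called. Differences were 4.39 for Tsr1, 4.22 for Rrs1, 4.09 for Gnl3, 3.86 for Nop58 and 3.81 for Gar1. All values are differences of log2(FPKM + 1).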

How the results depend on the processing

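No called change of a factor changed direction under any alternative run. Changes of factors that were not called, and those of genes outside the factors, were not followed gene by gene in these runs. Their direction may therefore depend on single libraries. Counts of called factors moved by over 1.5 times in 4 comparisons. LPS after PBS at 2 h gave 9, but 3 with no filter, 5 with the 2 h libraries alone, and 5 to 14 with a library left out (5 without PBS then LPS replicate 1, 14 without replicate 2). LPS after Poly I:C at 2 h gave 8, but 4 with no filter and 4 to 5 without any 1 of its 4 libraries. Poly I:C alone at 6 h gave 15, but 8 with no filter and 10 without either of its Poly I:C libraries. The interaction at 2 h gave 1, but 0 with the 2 h libraries alone (limma; with all libraries, 1 higher and 11 lower at an unadjusted p under 0.05), 2 with a pooled control, and 1 to 6 with a library left out (6 without PBS then LPS replicate 2). The cause was not tested. With a library left out, Poly I:C before LPS gave 35 to 37 at 2 h and 25 to 27 at 6 h, and their difference 37 to 39.

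Same-numbered samples did not deviate together (correlations of -0.19 to 0.078 over 15 pairs of groups, 0 over 0.1). With the replicate number as a block, Poly I:C before LPS gave 36 at 2 h and 29 at 6 h, their difference 38, LPS after Poly I:C 7 and 9, and the comparison of 6 h with 2 h 34 after PBS then LPS, 30 after Poly I:C then LPS and 28 after Poly I:C then PBS. Depth, unknown in reads, limits the weakly expressed factors most.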
